A study of Mus musculus with 4 samples.

Results

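The 10 genes described here include the regulators that make a plasma cell, Irf4, Prdm1 and Xbp1, and Mzb1, which helps to assemble antibody. The others encode surface proteins by which plasma cells are recognised or targeted, Sdc1 (CD138), Tnfrsf17 (BCMA), Tnfrsf13b (TACI), Cd38, Cd27 and Slamf7. All 10 were chosen by symbol from the 32285 genes of the deposited matrices, not by their values. Bone marrow came from 2 vehicle-treated 5TMM mice and 2 mice given 10 mg/kg purinostat mesylate (PM), an inhibitor of class I and IIb histone deacetylases (HDAC), and was taken after 24 h as 1 droplet-based single-cell RNA library per mouse. All 4 mice were C57BL/KawRij animals injected intravenously with 5TGM1-luc cells, a luciferase-carrying mouse myeloma line, at 6 weeks of age and treated 3 weeks later, so both groups carried the tumour and the model rests on 1 line in a host with its own immune cells. Red blood cells were lysed before the libraries were made.

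A B cell that becomes a plasma cell switches from recognising antigen to secreting antibody. Irf4 and Prdm1 (BLIMP-1) are transcription factors that set up this state, with Prdm1 shutting down B cell genes. Xbp1 enlarges the endoplasmic reticulum, in which Mzb1 helps to assemble antibody. BCMA and TACI are receptors for APRIL and BAFF that keep plasma cells alive, CD138 is a heparan sulfate proteoglycan that binds survival factors, CD38 is an ectoenzyme that consumes NAD, SLAMF7 is an adhesion receptor and CD27 is the receptor for CD70. In people with myeloma, BCMA, CD38 and SLAMF7 are bound by therapeutic antibodies, and BCMA is the main antigen of CAR T cells.

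Sequences of 4 surface antigen promoters follow because the myeloma cells below held transcripts of Sdc1 and Slamf7 but almost none of Tnfrsf17 and Cd38. Each window spans 250 bases before to 50 after the start site in RefSeq on GRCm38.p6, read 5′ to 3′ on the strand of the gene, and capitals mark CpG dinucleotides. Sdc1 lies at chr12:8771323-8793715 on the plus strand, Slamf7 at chr1:171632403-171653035 on the minus strand, Tnfrsf17 at chr16:11313812-11320074 on the plus strand and Cd38 at chr5:43868553-43912375 on the plus strand. These gene spans come from another annotation, GENCODE. The windows of Slamf7 and Cd38 lie wholly inside their spans, so they belong to a RefSeq start site within the span and not at its outer end.
Sdc1, chr12:8771146-8771445, plus: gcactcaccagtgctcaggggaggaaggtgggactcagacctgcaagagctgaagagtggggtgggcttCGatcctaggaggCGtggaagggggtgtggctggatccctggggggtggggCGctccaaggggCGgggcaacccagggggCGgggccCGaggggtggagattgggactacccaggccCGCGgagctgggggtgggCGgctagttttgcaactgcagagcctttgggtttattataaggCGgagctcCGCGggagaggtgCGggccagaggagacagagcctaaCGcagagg
Slamf7, chr1:171648950-171649249, minus: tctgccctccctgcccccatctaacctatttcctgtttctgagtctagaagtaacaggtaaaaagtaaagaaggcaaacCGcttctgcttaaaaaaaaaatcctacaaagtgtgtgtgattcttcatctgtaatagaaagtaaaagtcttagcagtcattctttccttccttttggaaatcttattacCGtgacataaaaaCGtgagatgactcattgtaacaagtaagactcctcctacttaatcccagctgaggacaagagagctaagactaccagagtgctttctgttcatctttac
Tnfrsf17, chr16:11313559-11313858, plus: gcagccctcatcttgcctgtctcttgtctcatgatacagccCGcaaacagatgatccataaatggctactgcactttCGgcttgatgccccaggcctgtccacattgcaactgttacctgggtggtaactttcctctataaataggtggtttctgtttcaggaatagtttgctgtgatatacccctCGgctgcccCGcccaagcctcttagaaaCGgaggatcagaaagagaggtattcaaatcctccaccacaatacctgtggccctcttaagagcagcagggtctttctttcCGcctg
Cd38, chr5:43868559-43868858, plus: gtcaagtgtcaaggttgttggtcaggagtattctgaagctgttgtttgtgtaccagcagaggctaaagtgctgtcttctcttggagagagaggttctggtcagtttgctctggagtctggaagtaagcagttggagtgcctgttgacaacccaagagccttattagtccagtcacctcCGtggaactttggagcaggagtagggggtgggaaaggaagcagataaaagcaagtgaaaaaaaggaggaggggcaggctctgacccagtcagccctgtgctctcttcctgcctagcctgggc
The window of Sdc1 held 14 CpG, that of Tnfrsf17 6, that of Slamf7 3 and that of Cd38 1, against a median of 7 over all 32851 promoters of the table. As few CpG as in the Cd38 window were found in 14.1% of promoters. Of the other members with an entry, Prdm1 had 20, Irf4 11, Xbp1 10, Tnfrsf13b 8 and Cd27 7. The Prdm1 window, too, lies inside the span of its gene. These are descriptions of sequence, and no binding or methylation was measured here.

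The 4 libraries held 8242 to 13848 barcodes and 69828595 to 109447030 UMIs (unique molecular identifiers, each standing for 1 captured RNA molecule), and 39743 cells were kept. Pairs of libraries shared 18 to 41 cell barcodes, and 2.56 to 5.51% of the cells of a library were called doublets. Clusters were made and named without the 10 members. Cells of the plasma clusters in which most cells held Rhox5, a gene of the tumour line, were taken as myeloma cells. There were 171 (21, 27, 92 and 31 in vehicle 1, vehicle 2, PM 1 and PM 2, an order that is kept throughout), and 98.8% of them held a Rhox5 UMI. The remaining plasma cells, here called other plasma cells, numbered 274 (42, 73, 95 and 64), and 3.29% held Rhox5. Levels are given as counts per 1000000 (CPM), that is the UMIs of a gene per 1000000 UMIs of a cell class in a mouse. Immunoglobulin transcripts took 50.5 to 61.8% of the UMIs of other plasma cells and 4.05 to 5.25% of those of myeloma cells, so levels are also given with immunoglobulin genes left out of the total. Cells with over 2% of their UMIs from 10 neutrophil transcripts numbered 0, 1, 11 and 1 among myeloma cells and 6, 3, 26 and 12 among other plasma cells.

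Sdc1 was held by myeloma cells of every mouse, at 304, 363, 336 and 469 CPM. Other plasma cells held it at 229, 273, 247 and 219 CPM, below every myeloma value. Over the 4 mice the means were 368 ± 71.4 CPM (SD, n = 4) and 242 ± 23.7 CPM (SD, n = 4). This order turned when immunoglobulin genes were left out, with 386 CPM in myeloma cells and 573 CPM in other plasma cells, so which of the classes carried more Sdc1 depends on the denominator. Slamf7 was at 85.3, 65.6, 99.0 and 123 CPM in myeloma cells and at 150, 156, 132 and 139 CPM in other plasma cells. The classes did not overlap, and myeloma cells were lower on either scale. Tnfrsf13b, which encodes TACI, was at 147, 152, 129 and 153 CPM against 207, 266, 184 and 213 CPM, again without overlap and lower in myeloma cells on either scale. The classes were defined from these same cells, so the differences between them are given as descriptions with no test.

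**Figure D1:**
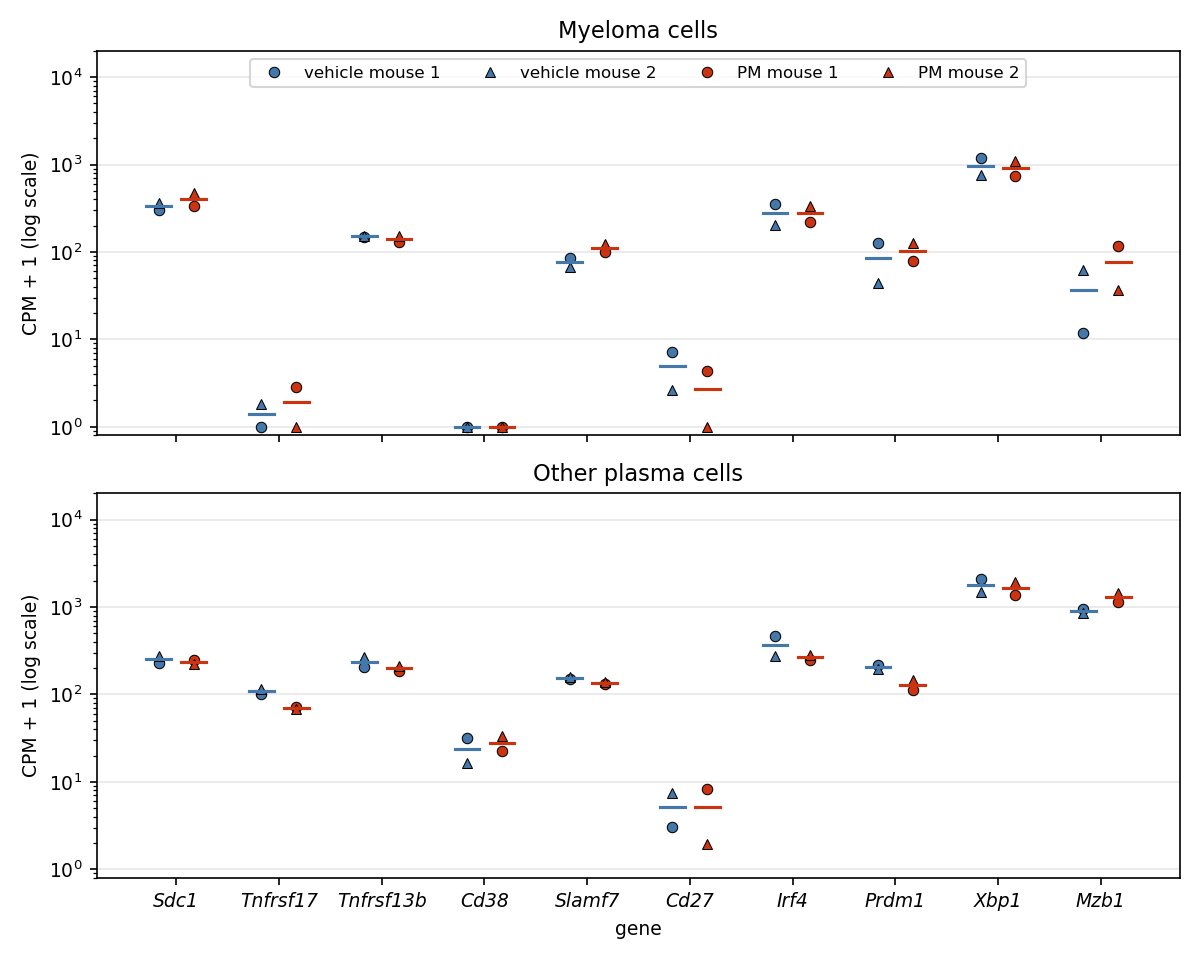
Level of each of the 10 genes in CPM per mouse, in myeloma cells and in other plasma cells, with 1 point per mouse and vehicle and PM mice drawn apart. Cd38 sits at 0 in the myeloma cells of all 4 mice and between 15.6 and 33.0 CPM in other plasma cells, and Mzb1 lies between 10.9 and 115 CPM in myeloma cells and between 859 and 1458 CPM in other plasma cells.

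Cd38 was not seen in myeloma cells at all. The myeloma cells of all 4 mice held 0 Cd38 UMIs among 6320812, and 0 of 171 cells had one. For 0 of 171 cells the exact 95% upper limit is 2.13% of cells with a Cd38 UMI at this depth. This pools the cells of all mice, and in single mice the limit ran from 3.93% in PM 1 to 16.1% in vehicle 1. It is not a limit on cells that express the gene. Other plasma cells had 30.5, 15.6, 21.4 and 33.0 CPM. Taken against 3 UMIs over all myeloma cells, other plasma cells were at least 52.1-fold higher, and at least 115-fold higher without immunoglobulin genes. Tnfrsf17, which encodes BCMA, was nearly absent in the same way. Myeloma cells of the 4 mice held 0, 1, 6 and 0 UMIs, spread over 7 cells with 1 each, whereas other plasma cells had 101, 115, 71.7 and 66.8 CPM. The pooled level was 1.11 CPM in myeloma cells (95% exact Poisson interval 0.445 to 2.28, counting error only), and other plasma cells were 78.9-fold higher on all UMIs and 174-fold higher without immunoglobulin genes. Since 6 of the 7 UMIs came from PM 1, the ratio on all UMIs was 290-fold without that mouse, on 1 UMI and with a 95% counting interval from 51.6 to 11483, and 38.7-fold within it. Cd27 was low in both classes, with 4, 2, 11 and 0 UMIs in myeloma cells and a mean of 4.20 CPM in other plasma cells.

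Genes beside Cd38 and Tnfrsf17, a comparison chosen after these values were seen, were not uniformly absent from myeloma cells. Of the genes next to Cd38, Bst1, its closest paralog, was at 3.16 CPM without immunoglobulin genes in myeloma cells and 13.95 CPM in other plasma cells. Fbxl5, a ubiquitin ligase subunit that senses iron, was at 27.6 against 66.7 CPM on this scale, but at 26.3 against 28.7 CPM on all UMIs. Cc2d2a, Fgfbp1, Gm7879 and Prom1 held 0, 0, 3 and 11 UMIs in myeloma cells, against 1, 0, 0 and 25 in other plasma cells. Next to Tnfrsf17, without immunoglobulin genes, the translation termination factor Gspt1 was at 223 CPM in myeloma cells and 123 CPM in other plasma cells. The next gene, Rsl1d1, was at 223 against 84.2 CPM. Snx29, on the other side of Tnfrsf17, was at 2.99 against 28.4 CPM. Transcripts of some neighbours were read from both regions in myeloma cells, while Bst1 and Snx29 were lower there than in other plasma cells. Why myeloma cells held almost no Cd38 and Tnfrsf17 transcripts was not tested.

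Of the regulators, Irf4 was at 349, 203, 222 and 334 CPM in myeloma cells and at 462, 277, 250 and 281 CPM in other plasma cells. Prdm1 was at 127, 42.9, 76.8 and 126 CPM against 217, 194, 111 and 147 CPM. The ranges of both genes overlapped on all UMIs. They did not overlap without immunoglobulin genes, at 212 to 368 CPM against 505 to 1092 CPM for Irf4 and 44.7 to 134 CPM against 224 to 512 CPM for Prdm1. The highest myeloma value of Prdm1 was 2.97 times the lowest, a spread reached by 2.03% of the 6018 genes with at least 20 CPM, whereas the median gene spread 1.44-fold. Xbp1 was at 1177, 757, 729 and 1095 CPM in myeloma cells and 2083, 1503, 1368 and 1945 CPM in other plasma cells, and every myeloma value was lower. Without immunoglobulin genes, the levels in other plasma cells came to 753 CPM for Irf4, 401 CPM for Prdm1 and 4099 CPM for Xbp1. On this scale the pooled level was 2.71-fold higher in other plasma cells for Irf4, 4.24-fold higher for Prdm1 and 4.40-fold higher for Xbp1, against 1.23-fold, 1.92-fold and 1.99-fold on all UMIs.

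Set beside Irf4, Prdm1 and Xbp1, Mzb1 differed most between the 2 classes and varied most between mice in myeloma cells. In other plasma cells the highest mouse exceeded the lowest 1.96-fold for Prdm1, 1.85-fold for Irf4 and 1.70-fold for Mzb1. Myeloma cells had 10.9, 60.7, 115 and 35.9 CPM and other plasma cells 953, 859, 1139 and 1458 CPM. Pooled over mice, other plasma cells were 14.04-fold higher, and 31.0-fold higher without immunoglobulin genes. On all UMIs the ratio was 87.8, 14.1, 9.90 and 40.7-fold within the 4 mice and 26.9-fold in the pool without PM 1. Within myeloma cells the highest mouse exceeded the lowest 10.6-fold, a spread that 26 of 6018 genes (0.432%) reached. Both the highest and the second lowest value belonged to PM mice, so the groups overlapped.

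The share of myeloma cells with a Mzb1 UMI differed between mice as well. In vehicle 1, 5 of 21 myeloma cells held a Mzb1 UMI (23.8%, 95% exact binomial interval 8.22 to 47.2%), and in vehicle 2 20 of 27 did (74.1%, 53.7 to 88.9%). In the PM mice it was 85 of 92 (92.4%, 84.9 to 96.9%) and 19 of 31 (61.3%, 42.2 to 78.2%). These intervals cover only the sampling of cells within 1 library per mouse, not the differences between mice. The median cell held 0, 0.315, 1.05 and 0.250 Mzb1 UMIs per 10000 of its UMIs. The most UMIs in 1 cell were 2, 10, 18 and 6. Igha, the heavy chain of IgA and a transcript of other plasma cells, stood at 30.8 to 51.7 CPM in myeloma cells, between 0.0146 and 0.0415% of its level in other plasma cells. The part of free RNA in the Mzb1 values was not tested.

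**Figure D2:**
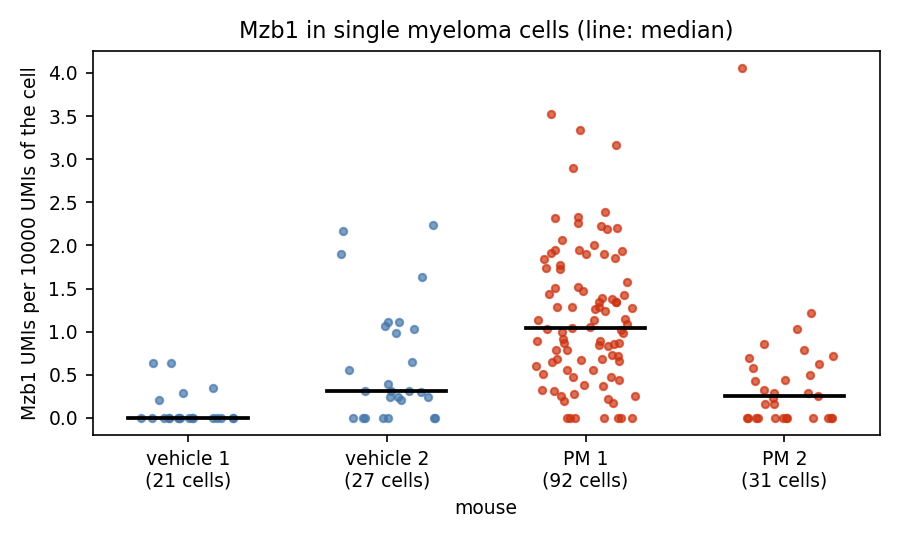
Mzb1 UMIs per 10000 UMIs of a cell in each single myeloma cell of the 4 mice, with 1 point per cell and a line at the median. The medians are 0 in vehicle 1, 0.315 in vehicle 2, 1.05 in PM 1 and 0.250 in PM 2.

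Since myeloma cells were sequenced to more UMIs per cell than other plasma cells (medians of 29625 to 40933 per mouse against 14001 to 21722), each cell was thinned to 2000 UMIs before shares of cells were compared, which used all 171 myeloma cells and left out 49 of the other plasma cells as too shallow. Thinning drew from all UMIs, immunoglobulin included, so a thinned other plasma cell kept fewer UMIs of other genes than a thinned myeloma cell. The shares below are therefore matched for total UMIs only, which lowers those of other plasma cells. A Sdc1 UMI was then found in 44.7% ± 7.27 (SD, n = 4) of myeloma cells and 36.9% ± 3.04 (SD, n = 4) of other plasma cells. Neutrophils, which should lack it, showed 0.089%. Without thinning the shares of Sdc1 were 98.4 and 80.5%. Mzb1 was found in 13.3% ± 6.57 (SD, n = 4) of thinned myeloma cells and 79.9% ± 2.40 (SD, n = 4) of other plasma cells. Slamf7 was found in 12.6% and 27.9%, Prdm1 in 15.9% and 24.0%, Irf4 in 37.8% and 42.8%, Tnfrsf13b in 21.2% and 35.2% and Xbp1 in 79.2% and 93.0%. Tnfrsf17 was found in 0.272% of myeloma cells and 18.9% ± 4.18 (SD, n = 4) of other plasma cells. For Cd38 the shares were 0% and 4.92%. In neutrophils the share was 15.2% for Xbp1, 4.52% for Tnfrsf13b and under 0.4% for every other member, so the share of Cd27 in myeloma cells, 0.272%, lay at the level of cells that hold little of it (0.304%).

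Counting the surface antigens targeted in patients, Sdc1, Tnfrsf17, Cd38 and Slamf7, in the same cell gave a fuller picture at 5000 UMIs per cell. Of 166 myeloma cells deep enough, 26 (15.7%) showed none of the 4, 92 (55.4%) showed 1, 47 (28.3%) showed 2, 1 (0.602%) showed 3 and none showed all 4. Of 212 other plasma cells, 24 (11.3%) showed none, 34 (16.0%) showed 3 and 4 (1.89%) showed all 4. The share with none was 19.0, 25.9, 14.4 and 7.14% among the myeloma cells of the 4 mice and 12.8, 8.0, 8.97 and 17.8% among the other plasma cells. Among myeloma cells both PM mice lay below both vehicle mice, on 4 of 21, 7 of 27, 13 of 90 and 2 of 28 cells. Among other plasma cells the groups overlapped. Neither difference between the groups was tested. A transcript not sampled at this depth is not proof that the cell lacks the antigen. The 5000 UMIs, too, included immunoglobulin, so the classes are not matched for UMIs of other genes.

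Pooled over mice, levels in dividing myeloma cells lay near those in the rest, but most of the pooled cells came from PM 1 and single mice differed in both directions. Cells with at least 2 of 6 mitotic genes (Mki67, Top2a, Ccnb1, Cdk1, Plk1 and Aurka) numbered 74, against 92 others, of which PM 1 gave 37 and 53. In the pool, Sdc1 was at 369 CPM in dividing and 357 CPM in other myeloma cells. Irf4 was at 243 against 261 CPM, Prdm1 at 85.8 against 82.8 CPM and Xbp1 at 884 against 810 CPM. Slamf7 was at 101 against 90.3 CPM, Tnfrsf13b at 138 against 143 CPM and Mzb1 at 74.6 against 83.1 CPM. Cd38 stayed at 0 in both, and Tnfrsf17 had 3 and 4 UMIs. Within mice, Tnfrsf13b was at 105 CPM in dividing and 201 CPM in other cells of vehicle 1, but at 184 against 108 CPM in PM 2. Irf4 was at 280 against 437 CPM in vehicle 1 and 367 against 267 CPM in PM 2, and Prdm1 at 155 against 77.6 CPM in PM 2. No test was made of these differences.

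The effect of PM on myeloma cells was then tested on the UMIs summed per mouse with edgeR's quasi-likelihood test. A gene passed where its p, adjusted by Benjamini-Hochberg over all genes, was under 0.05 and its log2 fold change above 0.5 or below -0.5. With 2 mice per group the p-values measure only the spread between these mice. In myeloma cells 54 of 8397 genes passed (0.643%), 44 higher and 10 lower, and 723 had an unadjusted p under 0.05. Of the 10 members, 7 had enough UMIs to be tested and 0 passed, with 1 under an unadjusted p of 0.05. That gene was Slamf7, at 85.3 and 65.6 CPM in vehicle and 99.0 and 123 CPM in PM mice, with a log2 fold change of 0.54 ± 0.22 (SE) and an adjusted p of 0.410. Both PM mice lay above both vehicle mice. Sdc1 stood at 0.21 ± 0.20 on the log2 scale (adjusted p = 0.895), with PM 1 inside the vehicle range. For the regulators the log2 fold changes were -0.02 ± 0.23 for Irf4, -0.12 ± 0.23 for Xbp1 and 0.28 ± 0.66 for Prdm1, with adjusted p-values of 0.991, 0.967 and 0.980. Mzb1, at 0.97 ± 1.20 (adjusted p = 0.953), was too variable between mice for a direction, and without PM 1 its value was -0.29. Tnfrsf13b stood at -0.14 ± 0.20 (adjusted p = 0.953). Prdm1 also turned direction without 1 mouse, to -0.37 without vehicle 2, as did Irf4, to 0.36 without vehicle 1.

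In other plasma cells 6 of 6361 genes passed (0.0943%) and 445 had an unadjusted p under 0.05. Of 9 members tested, all but Cd27, 0 passed and 3 had an unadjusted p under 0.05. Tnfrsf17 went from 101 and 115 CPM in vehicle to 71.7 and 66.8 CPM in PM mice, a log2 fold change of -0.83 ± 0.23 with an unadjusted p of 0.00416 and an adjusted p of 0.414. Both PM mice lay below both vehicle mice. Prdm1 went from 217 and 194 to 111 and 147 CPM, with -0.84 ± 0.26, an unadjusted p of 0.00730 and an adjusted p of 0.449, again without overlap. Irf4 went from 462 and 277 to 250 and 281 CPM, with -0.63 ± 0.26 and an adjusted p of 0.653, and here PM 2 lay above vehicle 2. Leaving out the cells with neutrophil transcripts, which were more frequent in the PM mice, brought Tnfrsf17 to -0.45 (adjusted p = 0.783), Irf4 to -0.42 and Slamf7 from -0.36 to -0.05, and Prdm1 to -0.62. The part of those transcripts in the main values was not tested beyond this. Sdc1 stood at -0.31 ± 0.23, Tnfrsf13b at -0.44 ± 0.26, Xbp1 at -0.27 ± 0.29, Mzb1 at 0.35 ± 0.26 and Cd38 at 0.07 ± 0.40 on the log2 scale, with adjusted p-values from 0.807 to 0.979. The only member that passed in any alternative, in either plasma class, was Prdm1 without the filter on low counts (-0.86, adjusted p = 0.0451).

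**Figure D3:**
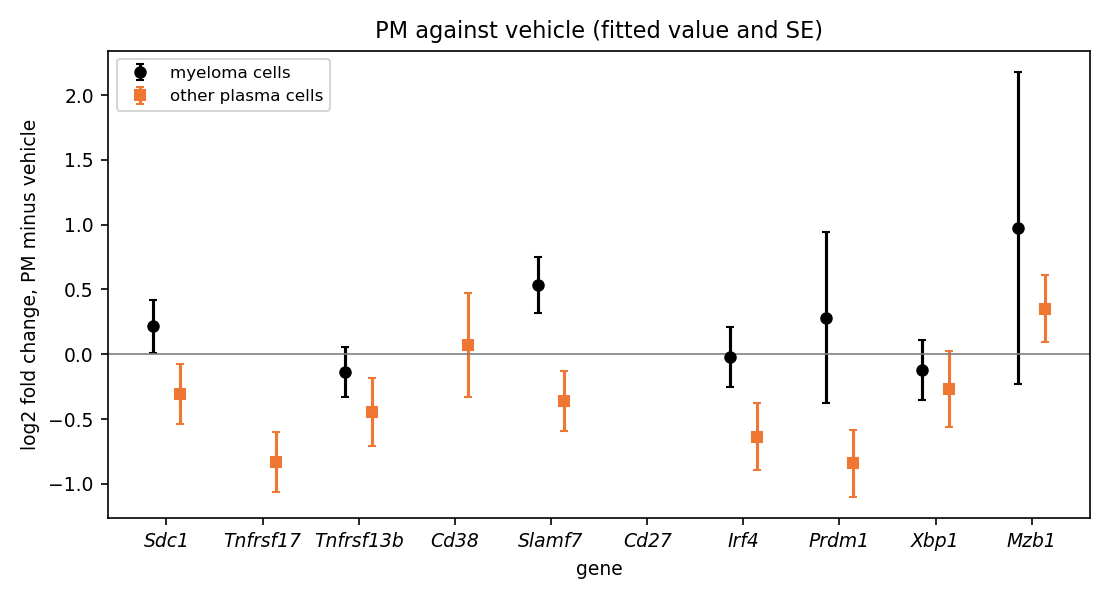
Fitted log2 fold change of PM against vehicle for each gene in myeloma cells (circles) and other plasma cells (squares). Bars are standard errors derived from the F statistic of the test, and a gene not tested in a class has no point. Mzb1 and Prdm1 in myeloma cells have the widest bars, 1.20 and 0.66, and Slamf7 lies at 0.54 in myeloma cells and at -0.36 in other plasma cells.

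Whether PM acted differently in the 2 plasma classes was tested as a class-by-treatment term with the mouse as a block. Over all genes 33 of 9007 passed (0.366%) and 721 had an unadjusted p under 0.05. Of the members 0 of 9 passed, and 4 had an unadjusted p under 0.05, all with the higher value in myeloma cells. The difference was 1.26 ± 0.37 on the log2 scale for Prdm1 (adjusted p = 0.228) and 0.95 ± 0.30 for Slamf7 (adjusted p = 0.241). For Irf4 it was 0.66 ± 0.25 (adjusted p = 0.407) and for Sdc1 0.55 ± 0.25 (adjusted p = 0.586). Without vehicle 1 the difference for Prdm1 stood at 2.02, in a fit that leaves 1 vehicle mouse. For Tnfrsf17 and Cd38 a difference could not be read, since their myeloma sums held 7 and 0 UMIs.

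The members sit in networks whose other genes were examined as 7 lists with 124 genes. The lists were chosen with earlier results of these data known, so their shares are descriptions and no test of enrichment. Only genes that passed the filter on low counts were tested, and a gene can pass it through 1 group alone. In myeloma cells 86 were tested and 2 passed (2.33%, against 0.643% of all genes), and in other plasma cells 0 of 89 passed, with 22 and 8 under an unadjusted p of 0.05. The first called gene was Ly6a (Sca-1), from the list of further surface antigens. It was at 3.10 and 1.62 CPM in vehicle, from 2 UMIs each, and at 52.5 and 33.4 CPM in PM mice, from 170 and 40 UMIs. The log2 fold change of Ly6a was 4.31 ± 0.50 (adjusted p = 5.14e-06). Ly6a passed the filter on low counts only through the PM mice. Its fold change rests on a vehicle level near 0, and its call, counted in the 2 above, is a description. Other plasma cells held 1377, 941, 1486 and 2188 CPM of Ly6a. The second was Swap70, a B cell signalling protein of the B cell list, at 10.9 and 16.99 CPM in vehicle and 32.7 and 56.7 CPM in PM mice, with a rise of 1.49 ± 0.33 (adjusted p = 0.0262). In both genes the PM mice lay above the vehicle mice. Neither gene passed when either vehicle mouse was left out, fits in which 1 and 0 of all genes passed. Ly6a then stood at 4.67 ± 0.67 without vehicle 1 (adjusted p = 0.0798) and 3.82 ± 0.72 without vehicle 2 (adjusted p = 0.226), and Swap70 at 1.25 ± 0.40 and 1.96 ± 0.52 (adjusted p of 0.474 and 0.378). Swap70 was also lost without PM 2 (1.17 ± 0.39, adjusted p = 0.104) and with DESeq2 (1.55 ± 0.52, adjusted p = 0.614), where Ly6a was called.

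None of the 16 tested plasma cell regulators passed in either class. In myeloma cells their median log2 fold change was 0.06, with 10 of 16 positive, and the largest values among those at 20 CPM or more were 1.09 for the transcription factor Runx1, 0.64 for the elongation factor partner Eaf2 and -0.53 for Arid3a. Below 20 CPM, where genes were outside the rule for naming and were picked after their values were seen, the transcription factors Klf2 stood at 1.99, Ikzf3 at 1.56 and Id3 at 0.70. None of these passed. The picks are all positive, although the list as a whole was not, so they do not stand for it. For other plasma cells the median was -0.21, and Pou2af1, the coactivator of the octamer factors, stood at -1.06. Of the list of B cell genes that are held down by Prdm1 or otherwise lost in plasma cells, 6 of 20 were tested in myeloma cells, all 6 had a positive value and 1 passed, with a median of 1.08 over the 6. At 20 CPM or more, Swap70 was followed by Spi1 (PU.1) at 0.67 and the invariant chain Cd74 at 0.49. Below 20 CPM, and picked after their values were seen, stood Pax5, the factor that keeps B cell identity, at 1.57 ± 0.47 (adjusted p = 0.156) and Cd24a, a B cell surface protein, at 1.56 ± 0.88 (adjusted p = 0.777). In other plasma cells 7 of 10 were positive with a median of 0.11, led by Spi1 at 0.99 and Ms4a1 (CD20) at 0.83. The median over all genes tested was 0.00 in either class. The tested genes of the B cell list had passed a filter on low counts that a gene can pass through 1 group alone. Cells with over 2% neutrophil transcripts numbered 0 and 1 in vehicle and 11 and 1 in PM mice among myeloma cells. Among other plasma cells they numbered 6 and 3 against 26 and 12. Their part in the values of Spi1 and the other genes of this list was not tested.

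Downstream of Xbp1, 27 genes of the unfolded protein response were tested in myeloma cells, of which 0 passed and 5 had a positive value, with a median of -0.27. Hyou1, a chaperone of the endoplasmic reticulum, stood at -0.63, Sel1l, which guides misfolded proteins to degradation, at -0.61, and the secreted stress factor Manf at -0.57. In other plasma cells 13 of 28 were positive and the median was -0.07, with the disulfide isomerase Txndc5 at -0.72 and the chaperone Calr at 0.49. In the APRIL and BAFF system 0 genes passed, with medians of -0.09 in myeloma and -0.46 in other plasma cells. Tnfrsf13c, the BAFF receptor, stood at -0.69 and the survival factor Mcl1 at -0.57 in myeloma cells, and Nfkb2 at -0.93 and Birc3 at -0.68 in other plasma cells. For gamma-secretase, the protease that sheds BCMA from the cell surface, the medians were 0.00 and 0.01, with Psen2 at 0.75 in myeloma cells. Among enzymes and ligands that work with the members, the medians were 0.12 and 0.18. Enpp1, which like CD38 belongs to the ectoenzymes that act on extracellular nucleotides, stood at -1.05 in other plasma cells. In the list of further surface antigens 12 of 14 tested genes were positive in myeloma cells with a median of 0.28. They included Cd93 at 0.93 and Cd47, the signal against phagocytosis, at 0.62. In other plasma cells 10 of 16 were positive with a median of 0.14. Of the 23 genes of this list in the data, only these had passed the filter, which a gene can pass through 1 group alone. The shares of positive genes are thus descriptions of the genes that passed it. Ly6a held 2 UMIs in each vehicle mouse.

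The 10 genes were then followed through 15 further cell types. Levels are on all UMIs. Immunoglobulin transcripts took 50.5 to 61.8% of these in other plasma cells and 1.74 to 2.06% in mature B cells. Tnfrsf17 was almost wholly a plasma cell transcript, as other plasma cells held 82.9 to 97.7% of the Tnfrsf17 UMIs of a marrow. Their level was 88.5 ± 23.0 CPM (SD, n = 4). The next class by mean, macrophages, had 1.42 CPM, which rests on 2 UMIs of vehicle 1 alone. Below the plasma classes, Sdc1 was at 58.0 ± 30.4 CPM (SD, n = 4) in stromal cells and 27.9 CPM in plasmacytoid dendritic cells. Cd38, by contrast, was highest in mature B cells at 172 ± 36.4 CPM (SD, n = 4), followed by pro-B and pre-B cells at 119 ± 65.4 CPM (SD, n = 4) and macrophages at 81.4 ± 28.1 CPM (SD, n = 4). These neighbours in the order overlapped between mice, and other plasma cells stood well below at 25.1 ± 8.06 CPM (SD, n = 4). Without immunoglobulin genes the pooled Cd38 level of other plasma cells was 57.4 CPM. On all UMIs Tnfrsf13b was highest in mature B cells at 329 ± 53.7 CPM (SD, n = 4) and plasmacytoid dendritic cells at 297 ± 59.9 CPM (SD, n = 4). These classes overlapped, and other plasma cells followed at 217 CPM. Without immunoglobulin genes the pooled level was 575 CPM in 199 other plasma cells not dividing and 163 CPM in 13 dividing ones. The place of other plasma cells in this order thus depends on the denominator. Cd27 belonged to other lineages, with 212 ± 23.7 CPM (SD, n = 4) in T cells, 162 ± 54.7 CPM (SD, n = 4) in NK cells and 134 ± 15.3 CPM (SD, n = 4) in HSPC, the blood stem and progenitor cells.

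Slamf7 ranged from 144 CPM in other plasma cells through 107 CPM in pro-B and pre-B cells, 94.9 CPM in conventional dendritic cells and 93.3 CPM in myeloma cells to 61.0 CPM in NK cells. Among the regulators, Irf4 had means over the 4 mice of 318 CPM in other plasma cells, 277 CPM in myeloma cells and 235 CPM in pro-B and pre-B cells. These classes overlapped, and mature B cells followed at 84.6 CPM. The order of the first classes differed between the groups. In the same order the means were 369, 276 and 338 CPM in vehicle mice and 266, 278 and 132 CPM in PM mice. Prdm1 was at 167 CPM in other plasma cells and 93.2 CPM in myeloma cells, and NK cells, which also use it, came next at 45.3 CPM. Xbp1 reached at least 20 CPM in all 17 named classes, with 417 CPM in plasmacytoid dendritic cells as the highest after the plasma classes. Mzb1 was at 1102 CPM in other plasma cells, 262 CPM in pro-B and pre-B cells and 246 CPM in mature B cells, so that myeloma cells, at 55.6 CPM, stood below cells of the B lineage and below plasmacytoid dendritic cells at 76.3 CPM.

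**Figure D4:**
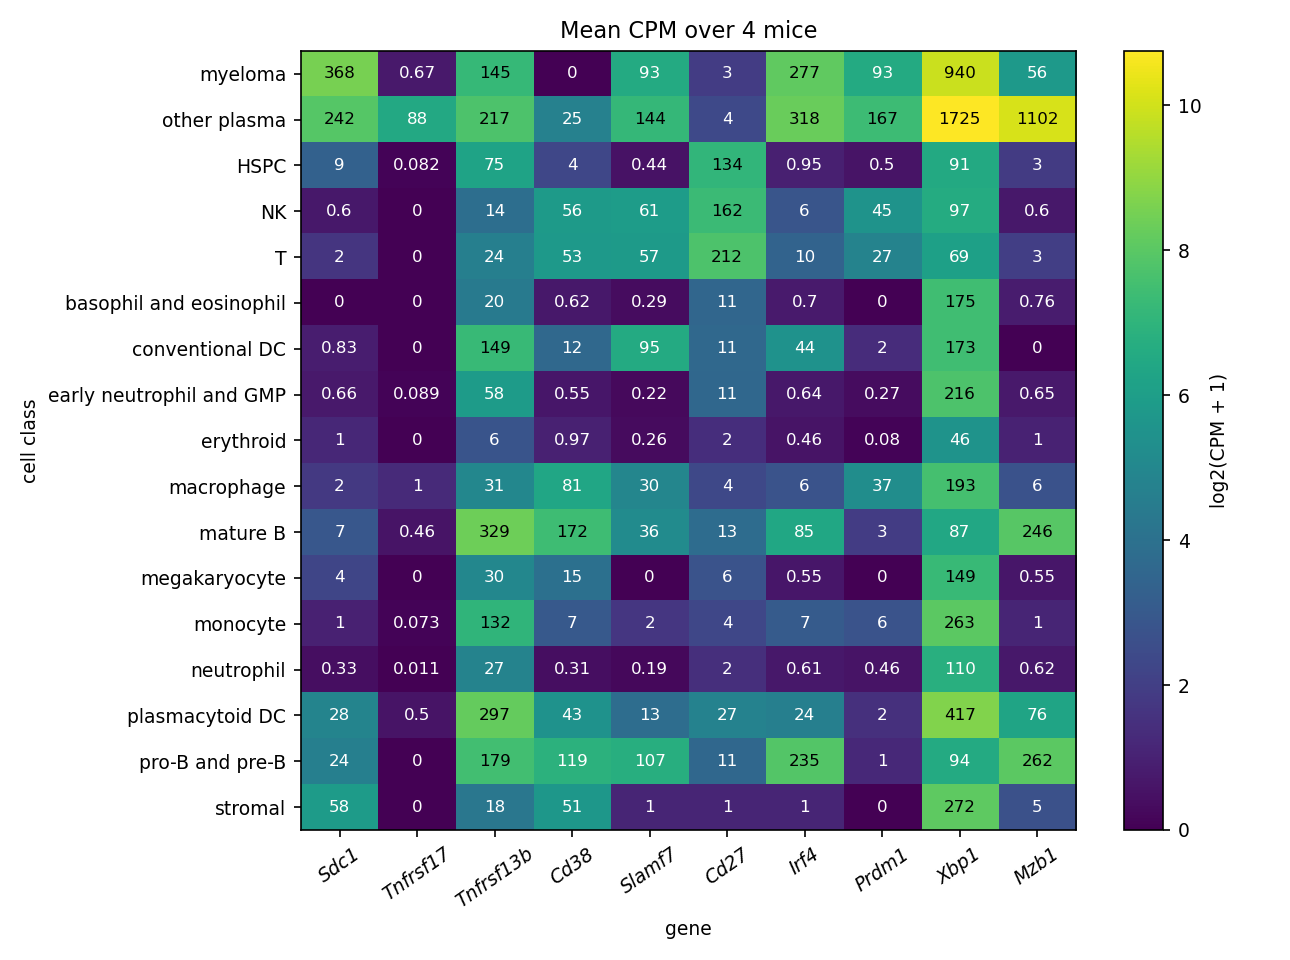
Mean level over the 4 mice of each of the 10 genes in the 17 named classes, in CPM on a log2(CPM + 1) colour scale, with the mean printed in each field. Cd38 is 0 in myeloma cells and 172 in mature B cells, and Tnfrsf17 is 88.5 in other plasma cells with at most 1.42 elsewhere.

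PM against vehicle was tested in these further types for 78 of the 150 pairs of a member and a type, and 4 passed, 1 higher and 3 lower, with 16 under an unadjusted p of 0.05. Over all genes 1.85% of 129413 such pairs passed and 12.7% had an unadjusted p under 0.05. Cd38 accounted for 2 of the 4. In pro-B and pre-B cells it went from 188 and 161 CPM to 54.5 and 72.5 CPM, and fell by 1.38 ± 0.20 on the log2 scale (adjusted p = 0.000183). In T cells it went from 88.4 and 64.9 CPM to 27.3 and 31.6 CPM, and fell by 1.34 ± 0.22 (adjusted p = 0.0150). The PM mice lay below the vehicle mice in both types. All genes passed at 8.11% in pro-B and pre-B cells and at 0.115% in T cells. The T cell call was lost with DESeq2, at -1.36 ± 0.36 (adjusted p = 0.0958), and without PM 1, at -1.28 ± 0.29 (adjusted p = 0.278), a fit in which 1 gene passed. The value in pro-B and pre-B cells ran from -1.54 to -1.22 with each mouse left out and passed each time. Across the 6 tested types with at least 20 CPM, Cd38 had log2 fold changes from -1.38 to -0.01 with a median of -0.67. Mature B cells, which held the most, went from 219 and 178 CPM to 132 and 158 CPM (-0.44 ± 0.16, adjusted p = 0.161). In monocytes the vehicle mice differed, with 21.5 CPM in vehicle 1 and 2.35 CPM in vehicle 2 against 2.25 and 1.98 CPM under PM.

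Irf4 in pro-B and pre-B cells went from 365 and 311 CPM to 117 and 146 CPM, and fell by 1.28 ± 0.18 (adjusted p = 0.000129), with no overlap between the groups. Several stage and lineage markers of these cells lay apart between the groups as well. Of the 10 markers, 7 were lower in both PM mice than in both vehicle mice, 1 was higher and 2 overlapped. A full split of 2 against 2 mice has an exact permutation p of 0.33. The share of all genes split this way was not counted, so the marker counts are descriptions. Vpreb3, Ebf1, Cd79a and Cd79b were among the lower ones, with Cd79b at 1183 and 1525 CPM in vehicle and 702 and 902 CPM in PM mice. Rag1 was at 350 and 471 CPM in vehicle and 167 and 147 CPM in PM mice, Rag2 at 224 and 170 against 53.3 and 55.6 CPM, and Dntt at 409 and 294 against 158 and 122 CPM. Vpreb1, at 695 and 509 against 669 and 706 CPM, overlapped between the groups, and Igll1, at 516 and 388 against 574 and 621 CPM, lay higher in PM mice. The summed level of the 10 markers was 9870 and 10497 CPM in vehicle and 6398 and 7606 CPM in PM mice. The class held 86 and 515 cells in vehicle and 200 and 133 in PM mice. The mean share of UMIs from neutrophil transcripts was 1.63 and 1.25% in vehicle and 5.85 and 2.23% in PM mice, and the median cell held 2513 and 2574 UMIs against 4960 and 3802. The part of stage, neutrophil transcripts and depth in the values of Cd38 and Irf4 was not tested, and within a class sum fewer expressing cells and less RNA per cell cannot be told apart. In T cells the summed markers were 4369 and 4475 CPM against 4404 and 4867 CPM. Of the 12 markers, 5 were higher in both PM mice than in both vehicle mice, 3 were lower and 4 overlapped, again without a count over all genes. Cd8b1, of the CD8 coreceptor, was at 97.1 and 143 CPM in vehicle and 224 and 281 CPM in PM mice, and Lef1, a factor of naive T cells, at 103 and 198 against 234 and 247 CPM. The cytokine receptor Il7r was at 303 and 443 against 550 and 559 CPM and Cd4 at 24.9 and 33.5 against 42.6 and 54.7 CPM. Cd8a was the other gene that lay higher. Cd3e, of the receptor complex, lay lower, at 480 and 418 against 339 and 410 CPM, as did Cd3g and Trbc2. The part of these markers in the value of Cd38 in T cells was not tested.

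Tnfrsf13b in neutrophils went the other way, from 17.5 and 12.3 CPM to 38.5 and 38.3 CPM, and rose by 1.24 ± 0.18 (adjusted p = 0.00575), beside 8.11% of all genes. Both PM mice lay above the vehicle mice. The summed neutrophil markers ranged from 366160 to 383676 CPM in vehicle and from 360316 to 396056 CPM in PM mice. Of the 11 single markers, 3 were higher in both PM mice, among them Ly6g, 3 were lower, among them Lcn2, and 5 overlapped. The share of all genes split this way was not counted. The median neutrophil held 5021 and 5243 UMIs in vehicle and 3872 and 4312 in PM mice. The part of these differences in the value of Tnfrsf13b was not tested. In early neutrophils and granulocyte-monocyte progenitors the same gene went from 48.5 and 50.9 CPM to 70.3 and 64.3 CPM (0.33 ± 0.11, adjusted p = 0.126). Over the 12 types with at least 20 CPM its log2 fold changes ran from -0.20 to 1.24, with a median of 0.17. Of the pairs that did not pass, Slamf7 in mature B cells had 18.7 and 27.0 CPM in vehicle and 46.2 and 50.3 CPM in PM mice (0.93 ± 0.27, adjusted p = 0.0606). Mzb1 in mature B cells stood at 0.47 ± 0.15 (adjusted p = 0.0971). Xbp1, at 20 CPM or more in 15 further types, ran from -0.34 to 0.47 and was called in none. In the types with at least 20 CPM, Slamf7 ran from -0.74 to 0.93 over 6 types, Cd27 from -0.25 to 0.20 over 4, Irf4 from -1.28 to 0.03 over 4, Mzb1 from -0.08 to 0.73 over 3, Prdm1 at -0.88 and -0.14 in the 2 tested and Sdc1 at -0.57 and 0.09 in the 2 tested. Sdc1, Cd27, Mzb1, Prdm1 and Slamf7 had 0 calls in the further types.

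**Figure D5:**
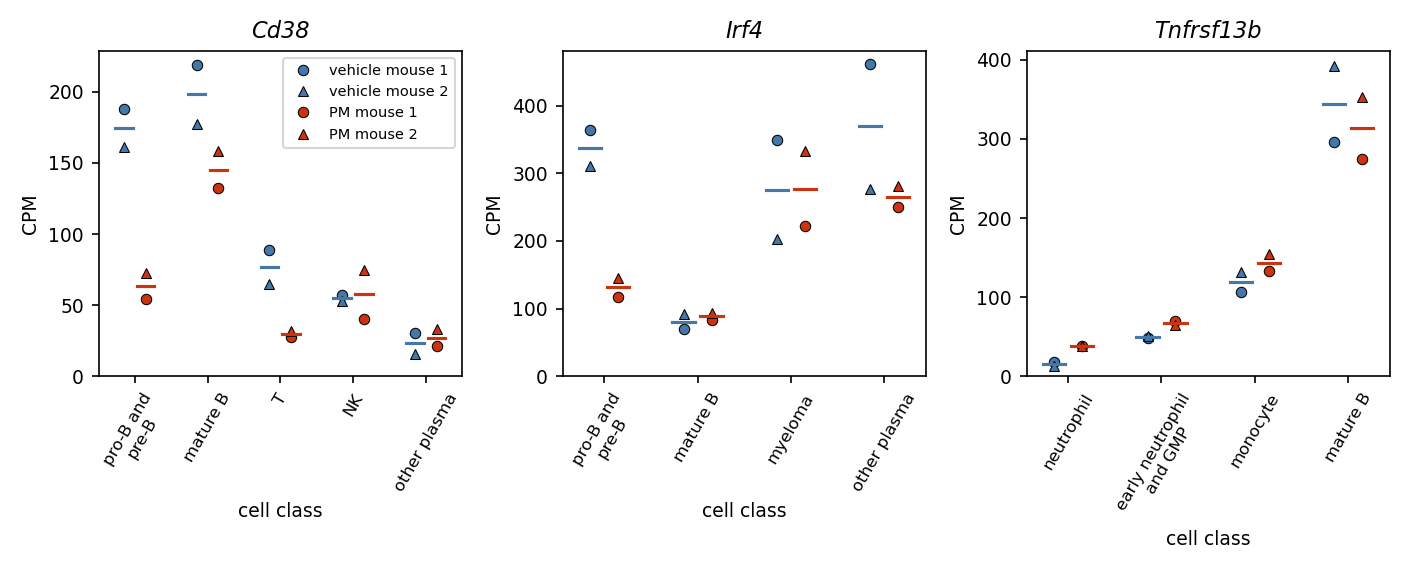
Level in CPM per mouse of Cd38, Irf4 and Tnfrsf13b, with 1 panel per gene, several cell classes in each panel and 1 point per mouse. The 4 called combinations are Cd38 and Irf4 in pro-B and pre-B cells, Cd38 in T cells and Tnfrsf13b in neutrophils. In each of these 4 the 2 PM points lie on one side of the 2 vehicle points. Classes without a call are drawn beside them, and in some of these the groups overlap, as for Irf4 in myeloma cells.

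The effects in these types were also set against each other for 11 combinations of a gene and a pair of classes, chosen after the values were seen. Some pairs of classes served several genes. For Cd38 the difference between pro-B and pre-B cells and mature B cells passed (4.98% of all genes did), whereas that between T cells and mature B cells was -0.86 ± 0.24 with an adjusted p of 0.0964 (0.479%). For Irf4, pro-B and pre-B cells differed from mature B cells and from myeloma cells (6.62% of all genes), and from other plasma cells by -0.66 ± 0.25 with an adjusted p of 0.219 (1.28%). For Tnfrsf13b, neutrophils differed from early neutrophils (4.1%), and from monocytes by 1.04 ± 0.35 with an adjusted p of 0.209 (6.56%). For Slamf7, mature B cells differed from pro-B and pre-B cells, and from other plasma cells by 1.39 ± 0.33 with an adjusted p of 0.149 (0.119%). Slamf7 in myeloma cells differed from that in pro-B and pre-B cells by 0.80 ± 0.28 with an adjusted p of 0.0617. Mature B and myeloma cells differed by 0.42 ± 0.35 with an adjusted p of 0.792 (0.995%).

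Across the 68 sums of 17 classes in 4 mice, which share mice and depth, the genes most like each member in log2(CPM + 1) were found by Pearson's r, as a description. Mzb1 followed Gm30211 (r = 0.90) and Pou2af1 (r = 0.88), and Irf4 followed Gm30211 (r = 0.86) and Slamf7 (r = 0.83). Xbp1 followed Sel1l (r = 0.85) and Edem1 (r = 0.84), both genes of protein quality control in the endoplasmic reticulum. Sdc1 followed Eaf2 (r = 0.80) and Dennd5b (r = 0.75), Tnfrsf13b followed Ero1lb (r = 0.80) and Serp1 (r = 0.76), and Prdm1 followed Slamf7 (r = 0.70) and Ube2j1 (r = 0.68). Tnfrsf17 had weaker likeness, with Edem2 and Xbp1 at r = 0.65. Cd38 followed Rhoq (r = 0.81) and Camk2d (r = 0.80), and Cd27 followed Tespa1 (r = 0.80) and Lck (r = 0.78), signalling genes of T cells. Slamf7 followed Irf4 (r = 0.83) and Dusp22 (r = 0.75).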

How the data were processed

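The authors aligned the reads with Cell Ranger 6.0.1, per the file headers, and deposited raw counts of UMIs per gene and barcode for each mouse. The labels name GRCm39 and the study's methods GRCm38, and coordinates here are on GRCm38, whose annotation matched the genes of the files. Of 41393 barcodes, those under 300 genes or over 20% mitochondrial UMIs were dropped. The study states fewer cells kept in both groups. Cells were clustered with scanpy 1.11.5 (2500 variable genes, 30 principal components, 15 neighbours, resolution 1) without the 10 members, and clusters were named from marker lists. Doublets were called with a Scrublet-type score and kept. Cluster names were rebuilt here and can differ from those of the study.

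Counts were summed per mouse and class and tested in R 4.3.3 with the quasi-likelihood test of edgeR 4.0.16 (robust fit, TMM factors, low counts removed by filterByExpr), and with DESeq2 1.42.0 as an alternative. Standard errors of edgeR values were derived as the absolute log2 fold change divided by the square root of the F statistic. The fits were tested on simulated data. An exact permutation of 2 against 2 mice cannot go below p = 0.33, so single values were not tested this way. Named genes are the members, list genes that passed, per list the 3 largest absolute changes at 20 CPM or more, and per member the 2 genes most alike. List genes named below 20 CPM are outside this rule and were picked after their values were seen. The members and lists were chosen with earlier results of these data known. Mice share only numbers between groups, and the correlation of same-numbered deviations was -0.0704 in myeloma and 0.114 in other plasma cells. Intervals and floors of 3 UMIs cover counting error only.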

Additional observations from a re-analysis of the deposited data

Results flagged for a closer look

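These 5 differences between cell classes passed the test of the difference itself, a class-by-treatment term with the mouse as a block. They come from 11 combinations of a gene and a pair of classes, chosen after the values were seen, and their causes were not tested. Of all genes, 4.98% passed between pro-B and pre-B cells and mature B cells. Between pro-B and pre-B cells and myeloma cells 6.62% passed, and between neutrophils and early neutrophils 4.1%. The adjusted p-values cover the genes of a contrast but not the choice of these combinations. The PM effect on Cd38 was lower in pro-B and pre-B cells than in mature B cells, by a log2 difference of -0.95 ± 0.23 (adjusted p = 0.00286). For Irf4 the effect was lower in pro-B and pre-B cells than in mature B cells by -1.31 ± 0.24 (adjusted p = 9.24e-06) and than in myeloma cells by -1.39 ± 0.23 (adjusted p = 5.83e-07). In pro-B and pre-B cells Irf4 fell by 1.28 on the log2 scale, whereas it stood at 0.03 in mature B cells and at -0.02 in myeloma cells. The effect on Tnfrsf13b was higher in neutrophils than in early neutrophils and granulocyte-monocyte progenitors by 0.89 ± 0.20 (adjusted p = 0.0379). That on Slamf7 was higher in mature B cells than in pro-B and pre-B cells by 1.06 ± 0.32 (adjusted p = 0.0232), although neither class passed by itself.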

How the results depend on the processing

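Over 256 alternative values of the members' fold changes in myeloma and other plasma cells, 243 kept their direction and side of the threshold. Cd38 in other plasma cells turned to -0.025 with myeloma cells picked by immunoglobulin transcripts. The other turns in direction came from leaving out 1 mouse at a time. In myeloma cells this gave values from -0.35 to 0.36 for Irf4, from -0.38 to 0.18 for Xbp1, from -0.37 to 1.13 for Prdm1 and from -0.29 to 2.90 for Mzb1. In other plasma cells it gave -0.42 to 0.51 for Cd38, -0.72 to 0.056 for Xbp1 and -0.0059 to 0.62 for Mzb1.

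In myeloma cells 0 members passed in any setting run, and the count of genes called, 54, became 8 with DESeq2, 147 without the filter on low counts, 26 without cells with neutrophil transcripts, 28 without these and immunoglobulin genes (an alternative chosen after seeing the data), 12 with Rhox5 per cell and 27 with immunoglobulin transcripts, and ran from 0 (without vehicle 2, 750 at an unadjusted p under 0.05 in edgeR) to 171 (without PM 2) with 1 mouse left out. Of the list genes there, 2 became 1 with DESeq2 and 0 to 5 with 1 mouse left out. In other plasma cells the 6 genes became 10 with DESeq2, 124 without the filter, 1 without immunoglobulin genes, 3 with immunoglobulin transcripts, and 0 without neutrophil-transcript cells, also with immunoglobulin genes left out (359 and 376 at an unadjusted p under 0.05 in edgeR), and 12 to 101 with 1 mouse left out. Members called there became 1 without the filter, and list genes 0 to 3 with 1 mouse left out. Members that differed between the classes numbered 0 to 1, and members called in further types 3 to 11, the 11 without vehicle 2. The causes were not tested.

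With the replicate block the 6 genes of other plasma cells became 17, those of myeloma cells 47, and members stayed at 0 in both. In further types the block gave 5 calls in place of 4, adding Prdm1 in monocytes. Pairing vehicle 1 with PM 2 (chosen after seeing the data, since the numbers correlated at -0.144 in neutrophils) also gave 5. The share of all genes called with either block in the further types was not set beside these counts, which are descriptions. Few myeloma cells limit depth: Cd27, Cd38 and Tnfrsf17 could not be tested there.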

Other observations

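Jchain, the chain that joins IgA and IgM into polymers, is on none of the 7 lists and was looked at after its values were seen. It is, however, among the markers that named the plasma clusters, and it was counted here with the immunoglobulin genes. Myeloma cells held 105 and 205 CPM in vehicle and 2457 and 1106 CPM in PM mice, without overlap. The log2 fold change was 3.48 ± 0.75 with an unadjusted p of 0.0210 and an adjusted p of 0.431 in edgeR, so it did not pass. In the same cells Igha, which antibody-secreting cells of the host hold in large amounts, stood at 45.0 and 30.8 CPM in vehicle and 44.7 and 51.7 CPM in PM mice. Other plasma cells held 43818, 65844, 49281 and 47185 CPM of Jchain. The cells with over 2% neutrophil transcripts numbered 0 and 1 against 11 and 1 in the same mice, and their part in the Jchain values was not tested.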
